A study of Mus musculus with 6 samples.

Results

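The 10 genes described here encode heat shock proteins and their partners that heat shock factor 1, HSF1, is known to drive: Hspa1a, Hspa1b, Hsph1, Dnajb1, Hspa8, Hsp90aa1, Chordc1 and Bag3 for the cytosol, and Hspd1 and Hspe1 for mitochondria. They were taken by name out of 29385 genes, with their levels in these same hearts already known, so their values and fold changes are a description and carry no p-value. All 10 were among the 16804 genes that passed the filter on low counts, and each had at least 60 reads in every library, so none passed through 1 group alone. Levels are in CPM, which scales the reads of a gene to the total assigned to genes in its library.

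Poly(A) RNA was sequenced from 6 mouse heart samples in 3 groups of 2, all collected 12 months after dosing of the newborn animals. The groups were Myh6 RH/RQ hearts given AAV-hpCas13d, called treated RH/RQ hearts below, Myh6 RH/RQ hearts given vehicle, and Myh6 RH/+ hearts given vehicle. Myh6 is the gene for alpha myosin heavy chain, the motor protein of the adult mouse ventricle. Every heart carried the RH allele, and none was free of an altered Myh6 allele. AAV is adeno-associated virus, and hpCas13d is a form of Cas13d, an enzyme that cuts RNA at sites chosen by a guide. The labels do not spell out the RH and RQ changes, the promoter in the virus or the guide. Whether the pair of samples in a group came from separate animals is not stated either, so p-values cover only the spread between these samples.

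The libraries held between 36269261 and 51017058 reads assigned to genes, so 3 reads, the limit for a gene with 0 reads, stood for 0.0588 to 0.0827 CPM. Genes of the mitochondrial genome took 17.2% and 19.9% of reads in treated RH/RQ, 21.6% and 22.4% in vehicle RH/RQ, and 20.9% and 19.5% in RH/+ hearts. This share moves the CPM of nuclear genes. With CPM over nuclear genes, the all-gene median log2 difference of treated against vehicle RH/RQ hearts was -0.01 instead of 0.04. Xist, which is transcribed from a silenced X chromosome, had 299 and 326 CPM in treated RH/RQ hearts, 0.274 and 0.0516 CPM in vehicle RH/RQ hearts, and 280 and 265 CPM in RH/+ hearts. Ddx3y, a gene of the Y chromosome, had 0 reads in treated RH/RQ and RH/+ hearts and 85.2 CPM in both vehicle RH/RQ hearts. In each comparison with the vehicle RH/RQ group, genotype or treatment therefore cannot be told apart from this sex-linked pattern, and in treated RH/RQ against RH/+ hearts the pattern was shared. The 10 listed cardiomyocyte markers summed to 70906 and 70961 CPM in treated RH/RQ hearts, 65063 and 68343 CPM in vehicle RH/RQ hearts, and 72658 and 77669 CPM in RH/+ hearts, with none at 0. In whole heart RNA, fewer cells of a type and less RNA per cell cannot be told apart.

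Heat shock proteins bind unfolded stretches of other proteins and help them fold, or hand them on for degradation. HSF1 is kept inactive while chaperones are free. When unfolded protein takes up the chaperones, HSF1 molecules assemble and bind heat shock elements, which are arrays of GAA units in alternating orientation close to the start of these genes. HSP70 proteins bind clients in a cycle set by J proteins, which stimulate ATP hydrolysis, and by exchange factors such as HSP110 and BAG proteins. HSP90 takes over late folding steps, and the HSP60 chamber with its HSP10 lid folds proteins inside mitochondria. In heart muscle, chaperones serve the myosin and filament proteins of the sarcomere, which are under constant mechanical load.

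The promoter sequences are shown because the element that HSF1 reads is the feature the 10 genes are known for. They come from RefSeq windows on GRCm38.p6 that run from 250 bases before to 50 bases after each transcription start. Windows were found for 8 of the 10 genes, all but Hspa8 and Hsp90aa1, and a gene with several annotated starts has several. Each sequence reads 5′ to 3′ on the gene's own strand, and capitals mark the letters GAANNTTC or TTCNNGAA, a pair of facing heat shock units with N for any base.
Hspa1a, chr17:34972157-34972306, minus strand: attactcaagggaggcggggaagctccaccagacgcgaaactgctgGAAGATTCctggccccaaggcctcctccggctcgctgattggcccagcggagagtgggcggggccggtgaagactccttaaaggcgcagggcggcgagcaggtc
Hspa1b, chr17:34959239-34959388, minus strand: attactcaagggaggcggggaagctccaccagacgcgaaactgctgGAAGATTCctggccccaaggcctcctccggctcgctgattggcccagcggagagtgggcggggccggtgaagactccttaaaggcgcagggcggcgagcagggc
Hsph1, chr5:149636361-149636396, minus strand: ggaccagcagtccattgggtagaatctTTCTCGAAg
Hspe1, chr1:55088056-55088079, plus strand: ccgTTCTAGAACCTTCCGGAAggc
Chordc1, chr9:18292260-18292288, plus strand: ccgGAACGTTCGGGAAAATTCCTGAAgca

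The Hspa1a and Hspa1b stretches end at the base before the start and differ at 1 of 150 positions, and their whole windows differ at 4 of 300. Each holds 1 pair of units, whose first base lies at -104. The Hspe1 stretch, with its first match at -89, holds 3 overlapping pairs, and so does the mirrored Hspd1 window of its first listed start, since these genes start head to head and their windows share 285 bases. Chordc1 holds 4 overlapping pairs across its start, beginning at -4, and a further pair at 34. Hsph1 has 1 pair at -33 and an overlapping run beginning at 37, both counted from the later of its annotated starts along the chromosome. Bag3 has 1 pair at 43, and in the Dnajb1 windows these letters were not found.

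The paired letters, which read the same on both strands, were in a window of 7 of these 8 genes and of 17.0% of all 27025 genes in the RefSeq table, or 15.1% of its 32851 windows. A run of at least 3 alternating units, GAANNTTCNNGAA or TTCNNGAANNTTC, contains the paired letters and was found for 4 of the 8 genes, Hsph1, Hspd1, Hspe1 and Chordc1, and for 0.662% of all genes, or in 0.603% of all windows. Among 120 other chaperone and heat shock genes, 96 had a window, and the paired letters were found for 17 of them and the longer run for 1. Hspa1a, Hspa1b and Dnajb1, which differed most between the vehicle groups, are not among these 4 genes. A match of letters is a description of the sequence and not evidence of binding in these hearts. Only these exact letters in these windows were searched, so a missing match does not show that a gene lacks an element.

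**Figure D1:**
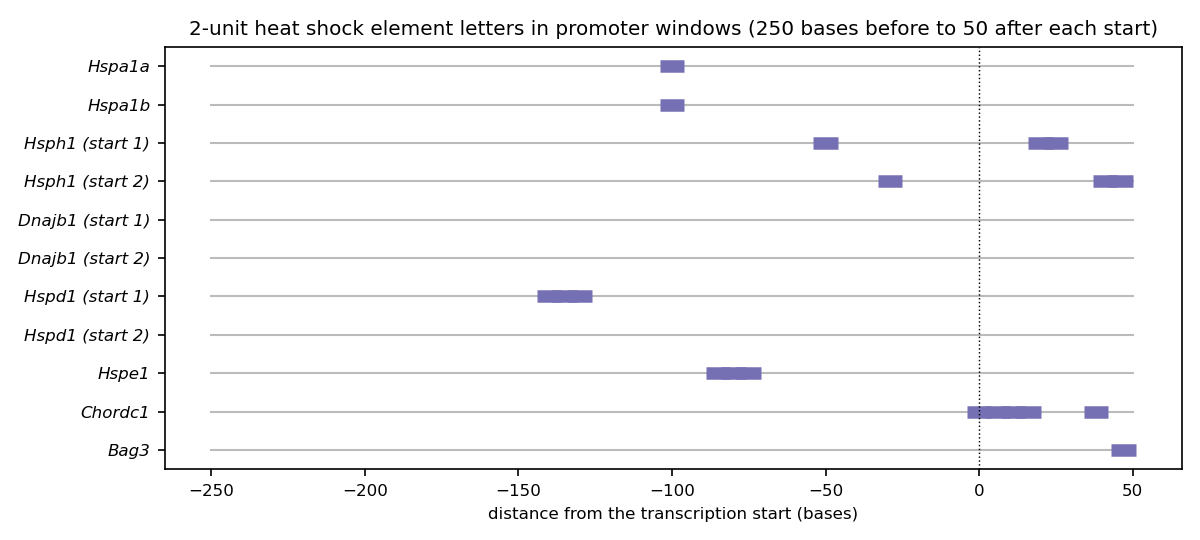
Positions of the paired heat shock letters (bars) in the RefSeq promoter windows of the 8 genes that had one, by distance in bases from the transcription start (dotted line), with 1 row per annotated start. Hspa1a and Hspa1b each have a single match at -104, Hspd1 and Hspe1 a run of 3 overlapping matches, and Dnajb1 none.

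Hspa1a and Hspa1b encode the stress-inducible cytosolic HSP70 protein and lie side by side on chromosome 17, at 34969190 to 34972156 and 34956436 to 34959238 on the minus strand, 9951 bases apart. Hspa1a had 2.98 and 2.03 CPM in treated RH/RQ hearts, 10.9 and 9.59 CPM in vehicle RH/RQ hearts, and 1.58 and 1.78 CPM in RH/+ hearts. Hspa1b had 5.27 and 3.69 CPM in treated RH/RQ hearts, 18.3 and 14.8 CPM in vehicle RH/RQ hearts, and 4.31 and 3.33 CPM in RH/+ hearts. Both vehicle RH/RQ libraries stood above all 4 others for both genes. Hspa1a was also slightly higher in both treated RH/RQ hearts than in either RH/+ heart, while for Hspa1b these ranges overlapped.

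In mean CPM, vehicle RH/RQ hearts had 6.10 times the Hspa1a level and 4.35 times the Hspa1b level of RH/+ hearts. Treated RH/RQ hearts had 0.245 of the Hspa1a level and 0.270 of the Hspa1b level of vehicle RH/RQ hearts. On the log2(CPM + 1) scale, which understates the change of low genes, Hspa1a differed by 2.07 (SE 0.18) between vehicle RH/RQ and RH/+ hearts, by -1.69 (SE 0.18) between treated and vehicle RH/RQ hearts, and by 0.38 (SE 0.18) between treated RH/RQ and RH/+ hearts. The differences for Hspa1b were 1.87, -1.69 and 0.18 in that order (SE 0.18 each). By log2 fold change, Hspa1a ranked 11 and Hspa1b ranked 15 from the top of 16804 genes in vehicle RH/RQ against RH/+ hearts. In treated against vehicle RH/RQ hearts they ranked 9 and 10 from the bottom.

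The coding sequences of the pair, 1923 and 1926 bases long in GENCODE M21, were 99.6% identical over the aligned positions, with 8 mismatches. Of all 100-base windows, 48.6% of the Hspa1a transcript and 49.9% of the Hspa1b transcript also occur in the other gene or in Hspa1l, so the split of reads between the pair is uncertain. As counted, Hspa1a took 36.1% (95% Wilson interval 30.9 to 41.7) and 35.5% (29.4 to 42.1) of the pair's reads in treated RH/RQ hearts, 37.2% (34.8 to 39.7) and 39.2% (36.2 to 42.4) in vehicle RH/RQ hearts, and 26.8% (21.4 to 32.9) and 34.8% (28.6 to 41.6) in RH/+ hearts. Only 1 RH/+ library had an interval that lay apart from those of the vehicle RH/RQ libraries, and these intervals cover counting error only. Summed, the pair had 8.24 and 5.72 CPM in treated RH/RQ hearts, 29.2 and 24.4 CPM in vehicle RH/RQ hearts, and 5.88 and 5.11 CPM in RH/+ hearts. The summed log2 differences were 2.10 for vehicle RH/RQ against RH/+ hearts, -1.81 for treated against vehicle RH/RQ hearts and 0.28 for treated RH/RQ against RH/+ hearts (SE 0.16 each), so the difference does not depend on how reads were split within the pair. A gene on the opposite strand, Gm20481, overlaps Hspa1a, and without a stated strand setting its reads cannot be told apart from those of Hspa1a.

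**Figure D2:**
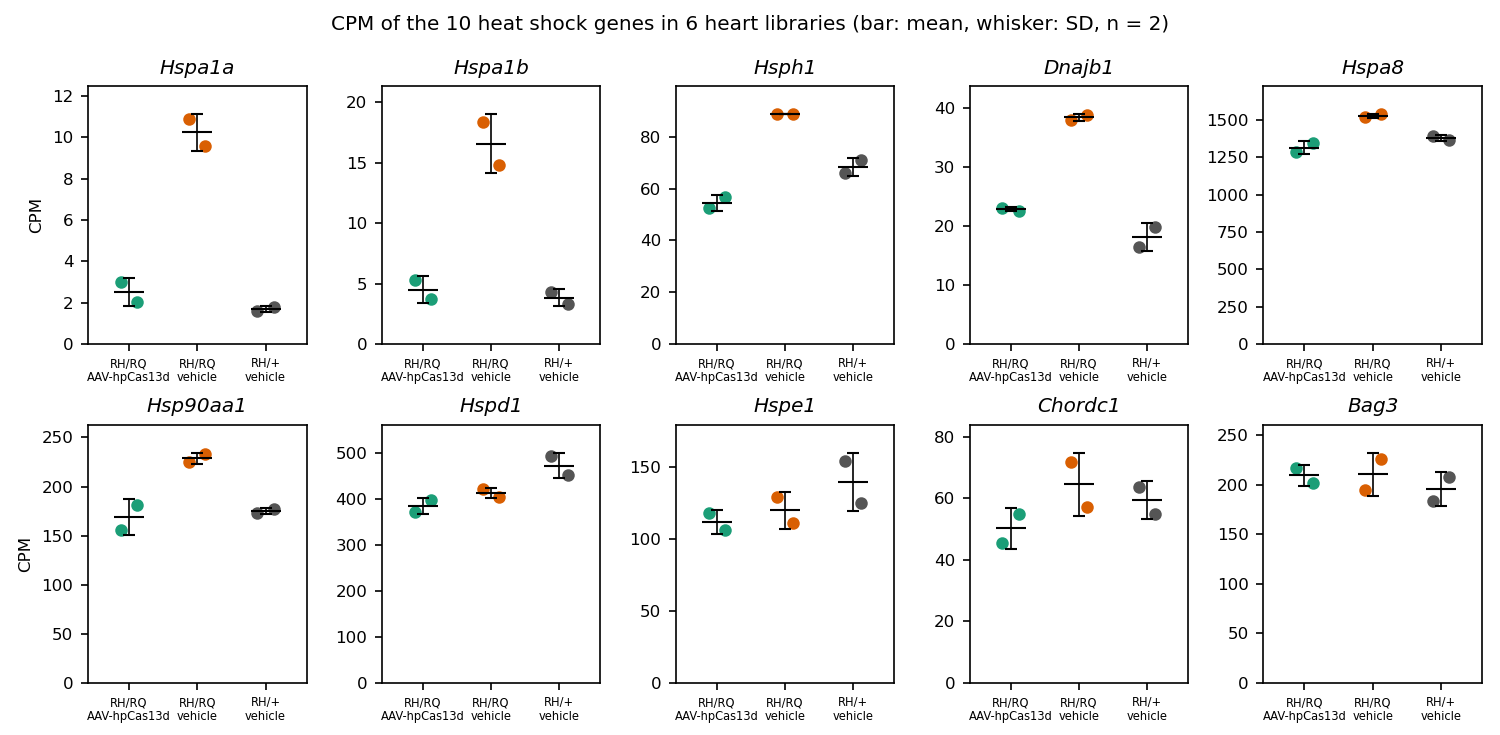
CPM of the 10 genes in each of the 6 libraries (points), by group, with the mean as a bar and the SD as a whisker (n = 2 per group). The vehicle RH/RQ hearts stand highest for Hspa1a, Hspa1b, Hsph1, Dnajb1, Hspa8 and Hsp90aa1, while Hspd1 is highest in RH/+ hearts and the Bag3 groups overlap.

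Dnajb1 encodes the J protein, also called HSP40, that works most closely with inducible HSP70 and helps to switch HSF1 off (chromosome 8, 83608193 to 83612653, plus strand). It had 23.1 and 22.6 CPM in treated RH/RQ hearts, 38.0 and 38.9 CPM in vehicle RH/RQ hearts, and 16.4 and 19.8 CPM in RH/+ hearts. The 3 groups did not overlap, with vehicle RH/RQ hearts highest and treated RH/RQ hearts between the others. Vehicle RH/RQ hearts had 2.12 times the Dnajb1 CPM of RH/+ hearts, a log2 difference of 1.05 (SE 0.12). The log2 difference of treated from vehicle RH/RQ hearts was -0.73 and that of treated RH/RQ from RH/+ hearts 0.32 (SE 0.12 each).

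Hsph1 encodes HSP110, which exchanges nucleotide on HSP70 and helps it to pull apart aggregates (chromosome 5, 149614287 to 149636376, minus strand). It had 52.3 and 56.6 CPM in treated RH/RQ hearts, 88.9 and 88.8 CPM in vehicle RH/RQ hearts, and 65.9 and 70.9 CPM in RH/+ hearts. As for Dnajb1, vehicle RH/RQ hearts were highest, but here the treated RH/RQ hearts were the lowest of the 3 groups. The log2 difference was 0.37 for vehicle RH/RQ against RH/+ hearts, -0.70 for treated against vehicle RH/RQ hearts and -0.32 for treated RH/RQ against RH/+ hearts (SE 0.10 each). The difference of treated RH/RQ hearts from RH/+ hearts was thus of about the size of that between the vehicle groups, with the opposite sign.

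Hsp90aa1 encodes the stress-inducible form of cytosolic HSP90 (chromosome 12, 110690605 to 110702728, minus strand). It had 156 and 182 CPM in treated RH/RQ hearts, 225 and 233 CPM in vehicle RH/RQ hearts, and 173 and 177 CPM in RH/+ hearts. The RH/+ values lay between those of the treated RH/RQ hearts, and both vehicle RH/RQ hearts were above. Its log2 differences were 0.38 for vehicle RH/RQ against RH/+ hearts and -0.44 for treated against vehicle RH/RQ hearts (SE 0.09 each). Hsp90ab1, the constitutive HSP90 gene outside the 10, had 1236 and 1381 CPM in treated RH/RQ hearts, 1281 and 1358 CPM in vehicle RH/RQ hearts, and 1183 and 1337 CPM in RH/+ hearts, and it passed the test in none of the comparisons (limma adjusted p of 0.829 for vehicle RH/RQ against RH/+ hearts, 0.978 for treated against vehicle RH/RQ hearts and 0.871 for treated RH/RQ against RH/+ hearts).

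Hspa8 encodes HSC70, the constitutive HSP70 of the cytosol, which also uncoats clathrin vesicles (chromosome 9, 40800984 to 40810087, plus strand). It had 1283 and 1345 CPM in treated RH/RQ hearts, 1517 and 1538 CPM in vehicle RH/RQ hearts, and 1392 and 1363 CPM in RH/+ hearts. The 3 groups kept apart in the order of the Hsph1 groups, with log2 differences of 0.15 for vehicle RH/RQ against RH/+ hearts and -0.22 for treated against vehicle RH/RQ hearts (SE 0.11 each), neither of which was called.

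Chordc1 encodes CHP1, a partner of HSP90 (chromosome 9, 18292125 to 18317442, plus strand). It had 45.6 and 54.8 CPM in treated RH/RQ hearts, 71.8 and 57.3 CPM in vehicle RH/RQ hearts, and 63.8 and 55.0 CPM in RH/+ hearts. The vehicle groups overlapped, and the treated RH/RQ hearts were just below both, with a log2 difference from vehicle RH/RQ hearts of -0.35 (SE 0.12). Bag3 encodes the HSP70 exchange factor that steers damaged filament proteins of the muscle Z-disc to autophagy, and its loss causes cardiomyopathy in humans (chromosome 7, 128523616 to 128546981, plus strand). It had 217 and 202 CPM in treated RH/RQ hearts, 195 and 226 CPM in vehicle RH/RQ hearts, and 183 and 208 CPM in RH/+ hearts. Bag3 overlapped between all 3 groups, and its log2 differences were 0.10 for vehicle RH/RQ against RH/+ hearts, -0.00 for treated against vehicle RH/RQ hearts and 0.10 for treated RH/RQ against RH/+ hearts (SE 0.10 each).

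Hspd1, the HSP60 chamber, and Hspe1, its HSP10 lid, are transcribed away from each other on chromosome 1, at 55077835 to 55088243 on the minus strand and 55088132 to 55091307 on the plus strand. Hspd1 had 372 and 397 CPM in treated RH/RQ hearts, 420.4 and 404 CPM in vehicle RH/RQ hearts, and 492 and 453 CPM in RH/+ hearts. Hspe1 had 118 and 106 CPM in treated RH/RQ hearts, 129 and 111 CPM in vehicle RH/RQ hearts, and 154 and 125 CPM in RH/+ hearts. Both had their highest mean in RH/+ hearts, which no cytosolic member did, and their lowest in treated RH/RQ hearts, as Hsph1, Hspa8, Hsp90aa1 and Chordc1 did. The Hspd1 log2 difference was -0.19 for vehicle RH/RQ against RH/+ hearts, -0.10 for treated against vehicle RH/RQ hearts and -0.30 for treated RH/RQ against RH/+ hearts (SE 0.10 each). Those for Hspe1 were -0.21, -0.10 and -0.31 in that order (SE 0.11 each). The annotated gene bodies overlap at their first exons, and processed pseudogenes share part of both transcripts (26.9% of the 100-base windows of Hspd1 and 20.4% of those of Hspe1), as they do for Hspa8 (62.8%) and Hsp90aa1 (47.5%), so reads of these 4 genes are uncertain to that extent. No such window of Hsph1, Dnajb1, Chordc1 or Bag3 was shared with another gene.

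Levels of different genes were set side by side as CPM per kilobase of annotated exon length, averaged over the 6 libraries. That length joins the exons of all annotated transcripts, so it can exceed that of any single transcript. It was 1474 bases for Hspe1, 7266 for Hsph1 and 7498 for Chordc1, where their longest coding transcripts have 774, 3802 and 5789 bases. The order of genes with similar values, and the gap between Hspd1 and Hspe1, therefore depend on this choice of length. Hspa8 was the most abundant at 327 CPM per kilobase, followed by Hspd1 at 160, Hspe1 at 83.9, Bag3 at 80.1 and Hsp90aa1 at 48.6 CPM per kilobase. Hsph1 (9.71), Dnajb1 (8.27) and Chordc1 (7.74) formed a lower tier, and Hspa1b (2.96) and Hspa1a (1.62) came last on the same scale. Neighbours in this order whose ranges over the 6 libraries overlapped were Hspe1 and Bag3, Hsph1 and Dnajb1, Dnajb1 and Chordc1, Chordc1 and Hspa1b through the vehicle RH/RQ values of Hspa1b, and Hspa1b and Hspa1a. Hspa1a and Hspa1b, with the largest log2 differences between the vehicle groups, were thus the least abundant on this scale. In CPM not scaled to length, all 10 together had 2274 and 2371 CPM in treated RH/RQ hearts, 2714 and 2721 CPM in vehicle RH/RQ hearts, and 2547 and 2477 CPM in RH/+ hearts.

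**Figure D3:**
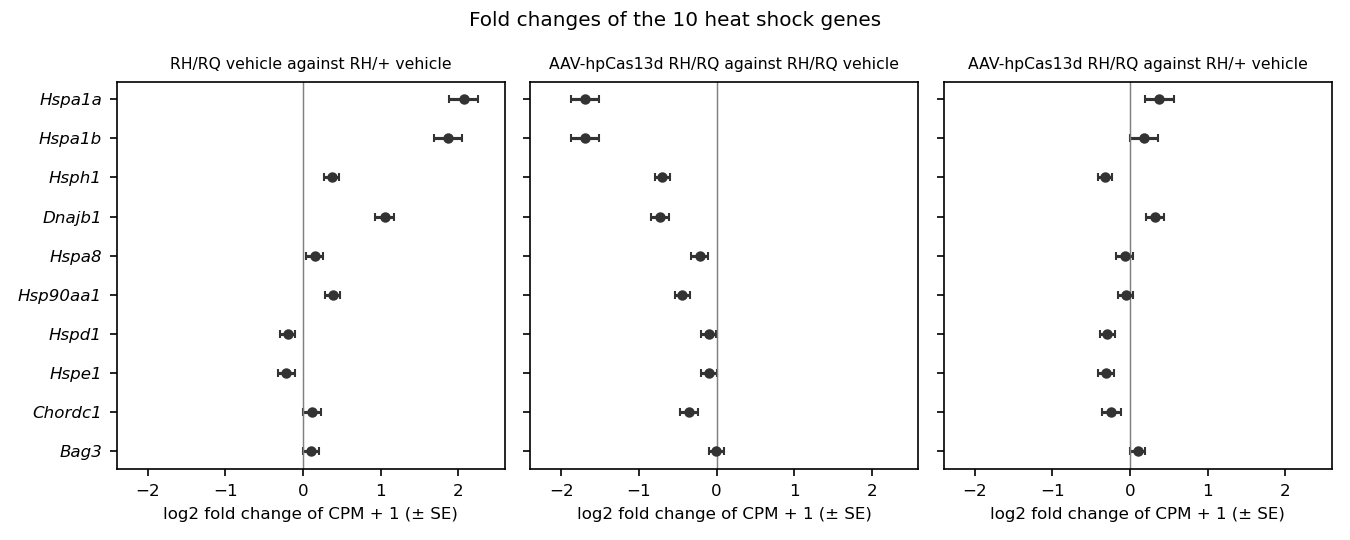
Log2 fold changes of CPM + 1 for the 10 genes (points) with their standard errors from the limma fit (whiskers) in the 3 comparisons. Hspa1a, Hspa1b and Dnajb1 stand farthest right for vehicle RH/RQ against RH/+ hearts, at 2.07, 1.87 and 1.05, and farthest left for treated against vehicle RH/RQ hearts, at -1.69, -1.69 and -0.73.

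In vehicle RH/RQ against RH/+ hearts, limma at an adjusted p under 0.05 called 5 of the 10 genes higher, Hspa1a, Hspa1b, Hsph1, Dnajb1 and Hsp90aa1, and 0 lower, where 3.48% of all genes tested were called higher and 1.51% lower. The ranges of the vehicle groups did not overlap for 6 genes that were higher, with Hspa8 added, against 30.8% of all genes, and for 1 that was lower, Hspd1, against 18.5% of all genes. The median log2 difference of the 10 was 0.26 and that of all genes 0.04. These calls used the values by which the 10 were chosen, so nothing is read from the excess over all genes or from a call being kept. The same holds for the calls of the 10 in the other comparisons. The calls of Hspa1a, Hspa1b and Dnajb1 were kept under each of the alternatives tried. Those of Hsph1 and Hsp90aa1 were not made by edgeR, nor after leaving out any 1 of the 4 vehicle libraries. With libraries scaled by RLE factors limma made neither of these calls, and with TMM factors it did not call Hsp90aa1.

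In treated against vehicle RH/RQ hearts, the same 5 genes were called lower and 0 of the 10 higher, where 0.827% of all genes were called lower and 1.22% higher. The ranges did not overlap for 8 genes, all but Hspe1 and Bag3, each of them lower in treated RH/RQ hearts, against 14.4% of all genes, and for 0 that were higher, against 26.2% of all genes. The median log2 difference was -0.40 for the 10 and 0.04 for all genes. The call of Hsp90aa1 was not made without treated RH/RQ replicate 1, without vehicle RH/RQ replicate 1 or without vehicle RH/RQ replicate 2. This comparison shares the vehicle RH/RQ libraries with the one before it, so a high value in those libraries moves both, in opposite directions.

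In treated RH/RQ against RH/+ hearts, which had the same sex-linked pattern, limma called 0 of the 10 genes higher, against 2.33% of all genes, and 0 lower, against 0.53% of all genes. Of the 10, 4 had an unadjusted p under 0.05, and edgeR and DESeq2 each called 3 lower, Hsph1, Hspd1 and Hspe1. Ranges did not overlap for 2 genes that were higher, Hspa1a and Dnajb1, against 35% of all genes, and for 5 that were lower, Hsph1, Hspa8, Hspd1, Hspe1 and Chordc1, against 9.66% of all genes. The median log2 difference was -0.06 for the 10 and 0.08 for all genes. In the authors' deposited shorter list for this comparison none of the 10 appears among 194 genes. Their list for vehicle RH/RQ against RH/+ hearts holds Hspa1a (log2 fold change 2.56), Hspa1b (2.07) and Dnajb1 (1.04) among 427 genes, and that for treated against vehicle RH/RQ hearts holds Hspa1a (-2.09), Hspa1b (-1.95), Dnajb1 (-0.81) and Hsph1 (-0.76) among 185 genes, all as given in the authors' deposited tables.

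The 120 other chaperone and heat shock genes, a list that excludes the 10, were set beside them. Of these, 115 were tested, and limma called 5 higher and 0 lower in vehicle RH/RQ against RH/+ hearts, 0 higher and 4 lower in treated against vehicle RH/RQ hearts, and 1 higher and 0 lower in treated RH/RQ against RH/+ hearts. These are 4.35%, 3.48% and 0.870% of the 115 genes tested, where 4.99%, 2.05% and 2.86% of all genes were called in either direction. By direction, 3.48%, 1.22% and 2.33% of all genes were called higher and 1.51%, 0.827% and 0.53% lower. The median log2 differences of the list were 0.03, 0.03 and 0.06, beside 0.04, 0.04 and 0.08 for all genes. The genes called were Dnaja1, Dnajb4, Hspb1, Flnc, Ier5 and Hmox1.

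Dnaja1, a J protein of the cytosol, had 79.4 and 88.8 CPM in treated RH/RQ hearts, 153 and 124 CPM in vehicle RH/RQ hearts, and 87.1 and 86.8 CPM in RH/+ hearts. It was higher in both vehicle RH/RQ hearts than in the 4 others, by 0.66 against RH/+ hearts (SE 0.10, limma adjusted p = 0.000272), and it fell by 0.71 on the log2 scale in treated against vehicle RH/RQ hearts (SE 0.10, limma adjusted p = 0.000219). Treated RH/RQ and RH/+ hearts overlapped, with a log2 difference of -0.05 (SE 0.10, limma adjusted p = 0.872). Both Dnaja1 calls were kept with each library left out. Dnajb4, a J protein abundant in muscle, had 127 and 144 CPM in treated RH/RQ hearts, 161 and 154 CPM in vehicle RH/RQ hearts, and 124 and 125 CPM in RH/+ hearts. It passed only in vehicle RH/RQ against RH/+ hearts (log2 difference 0.34, SE 0.09, limma adjusted p = 0.0343), a call that was not made by edgeR or DESeq2 nor after leaving out any of the 4 vehicle libraries (adjusted p between 0.119 and 0.261).

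Ier5, which encodes a protein that activates HSF1 and is itself among its targets, had 43.8 and 39.7 CPM in treated RH/RQ hearts, 60.1 and 55.3 CPM in vehicle RH/RQ hearts, and 30.3 and 34.6 CPM in RH/+ hearts. The groups did not overlap, in the order seen for Dnajb1. The log2 difference was 0.81 for vehicle RH/RQ against RH/+ hearts (SE 0.11, limma adjusted p = 2.54e-05), -0.46 for treated against vehicle RH/RQ hearts (SE 0.11, limma adjusted p = 0.0213) and 0.35 for treated RH/RQ against RH/+ hearts, which did not pass (SE 0.11, limma adjusted p = 0.0800) except without treated RH/RQ replicate 2 (adjusted p = 0.0474). The middle call was lost without treated RH/RQ replicate 2 (adjusted p = 0.0752), vehicle RH/RQ replicate 1 (0.176) or vehicle RH/RQ replicate 2 (0.0816). Hsf1 itself had 42.6 and 38.0 CPM in treated RH/RQ hearts, 39.7 and 34.4 CPM in vehicle RH/RQ hearts, and 37.0 CPM in both RH/+ hearts. It passed the test in none of the comparisons, with log2 differences of 0.00 (limma adjusted p = 0.999) for vehicle RH/RQ against RH/+ hearts and 0.12 for both comparisons of treated RH/RQ hearts (SE 0.11 each). HSF1 is controlled largely after translation, so its RNA level does not measure its activity.

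Flnc, filamin C, a Z-disc protein handled by BAG3, had 381 and 399.9 CPM in treated RH/RQ hearts, 478 and 555 CPM in vehicle RH/RQ hearts, and 305 and 367 CPM in RH/+ hearts. It was called higher by 0.62 in vehicle RH/RQ against RH/+ hearts (SE 0.11, limma adjusted p = 0.000601). In treated against vehicle RH/RQ hearts it was called lower, with a log2 difference of -0.40 (SE 0.11, limma adjusted p = 0.0489), a call lost without treated RH/RQ replicate 1 (adjusted p = 0.167) or vehicle RH/RQ replicate 2 (0.653). Hspb1, the small heat shock protein HSP27, had 201 and 185 CPM in treated RH/RQ hearts, 239 and 262 CPM in vehicle RH/RQ hearts, and 200.3 and 204 CPM in RH/+ hearts. Its log2 difference was -0.37 for treated against vehicle RH/RQ hearts (SE 0.09, limma adjusted p = 0.0324), and 0.31 for vehicle RH/RQ against RH/+ hearts, which did not pass with all 6 libraries (limma adjusted p = 0.0578) but did without treated RH/RQ replicate 1 (adjusted p = 0.0193) or replicate 2 (0.0196) and with the 4 vehicle libraries alone (0.0191). The first difference was still called without treated RH/RQ replicate 1 (adjusted p = 0.0215) and was not called with any of the other 5 libraries left out (adjusted p between 0.0536 and 0.486).

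Hmox1, heme oxygenase, which responds to heat and to oxidative stress, had 12.6 and 10.2 CPM in treated RH/RQ hearts, 13.4 and 13.0 CPM in vehicle RH/RQ hearts, and 6.04 and 7.84 CPM in RH/+ hearts. Between treated and vehicle RH/RQ hearts it did not pass the test, with a log2 difference of -0.20 (SE 0.16, limma adjusted p = 0.653). It was higher than in RH/+ hearts by 0.85 in vehicle RH/RQ hearts (SE 0.16, limma adjusted p = 0.00148) and by 0.65 in treated RH/RQ hearts (SE 0.16, limma adjusted p = 0.0224). Both calls were lost without RH/+ replicate 1 (adjusted p of 0.0568 and 0.400), and the second was also lost without treated RH/RQ replicate 1 (0.198).

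**Figure D4:**
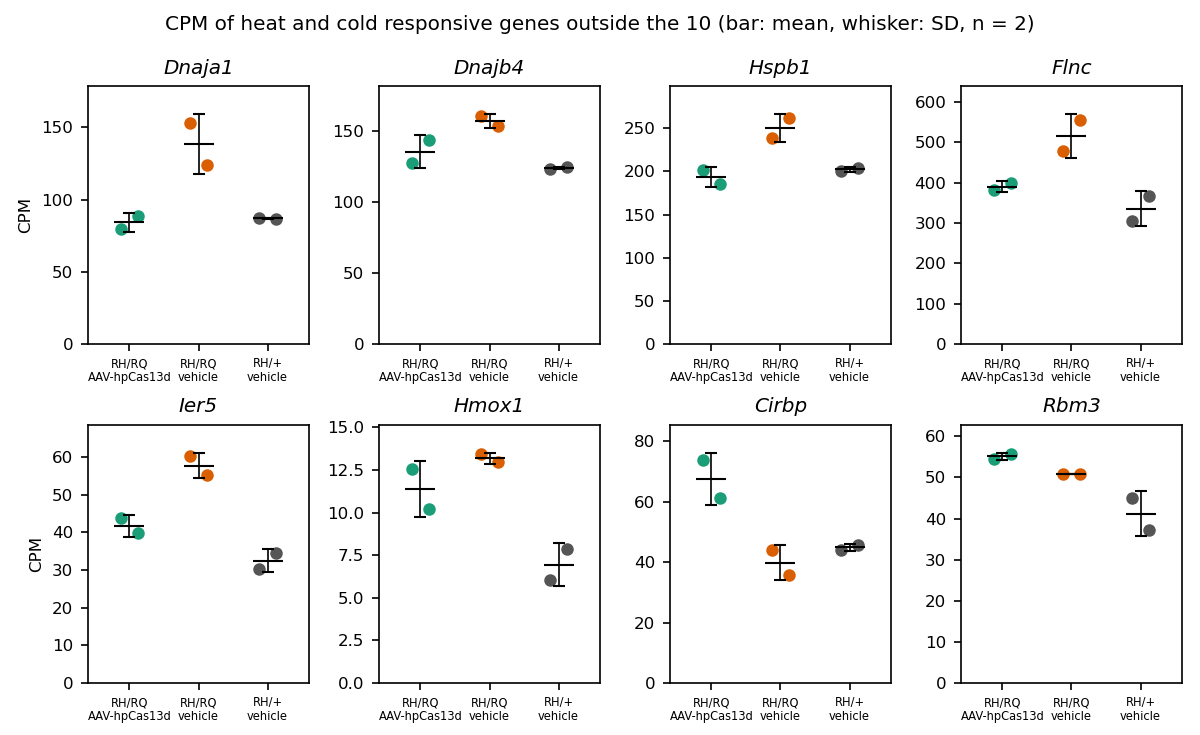
CPM of 8 heat and cold responsive genes outside the 10, in each of the 6 libraries (points), with the group mean as a bar and the SD as a whisker (n = 2 per group). Dnaja1, Hspb1, Flnc and Ier5 are highest in vehicle RH/RQ hearts, Hmox1 is higher in both RH/RQ groups than in RH/+ hearts, and Cirbp and Rbm3 are highest in treated RH/RQ hearts.

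By role, most other families gave few calls or none. More were made in a list of 22 heat-inducible genes, which shares genes with the families below. In vehicle RH/RQ against RH/+ hearts limma called 4 of them higher and 0 lower, against 3.48% and 1.51% of all genes. For treated against vehicle RH/RQ hearts the counts were 0 and 3, against 1.22% and 0.827%. For treated RH/RQ against RH/+ hearts they were 1 and 0, against 2.33% and 0.53%. The medians were 0.09, -0.14 and 0.02 in that order. Of 9 other HSP70 genes tested and of 21 HSP90 and cochaperone genes, limma called 0 in each comparison, with 2, 0 and 0 of the HSP70 genes and 2, 2 and 1 of the HSP90 group at an unadjusted p under 0.05, in the order vehicle RH/RQ against RH/+ hearts, treated against vehicle RH/RQ hearts, and treated RH/RQ against RH/+ hearts. Of 33 J proteins the calls were Dnaja1 and Dnajb4, of 8 small heat shock proteins Hspb1, and of 9 BAG proteins and BAG3 partners Flnc, as given above. Of 14 chaperonin and prefoldin genes, which fold actin and tubulin, 0 were called, with 0, 1 and 0 at an unadjusted p under 0.05. For the families with 0 calls by limma, edgeR and DESeq2 also called 0.

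Of 15 other genes of mitochondrial protein folding and breakdown, 0 were called in any of the 3 comparisons by limma, edgeR or DESeq2, with 0, 1 and 0 at an unadjusted p under 0.05. Their median log2 difference was -0.05 in vehicle RH/RQ against RH/+ hearts, 0.09 in treated against vehicle RH/RQ hearts and 0.04 in treated RH/RQ against RH/+ hearts. In each of the 3 comparisons the Hspd1 and Hspe1 values, which ran from -0.10 to -0.31, lay below this median. Of 18 chaperone and quality control genes of the endoplasmic reticulum, limma called 1, Herpud1, which helps to degrade misfolded proteins. It was higher in treated against vehicle RH/RQ hearts, with 211 and 188 CPM against 151 and 152 CPM. The log2 difference was 0.40 (SE 0.09, limma adjusted p = 0.0207), and DESeq2 made this call while edgeR did not. Its direction was opposite to the called cytosolic genes and to most of its own list. In that comparison the 18 genes had a median log2 difference of -0.15, beside 0.04 for all genes, with 3 of them above 0. Their ranges did not overlap for 10 that were lower, against 14.4% of all genes, and for 3 that were higher, against 26.2%. Against RH/+ hearts their medians were 0.05 in vehicle and -0.06 in treated RH/RQ hearts. DESeq2 also called Herpud1 lower in vehicle RH/RQ against RH/+ hearts (adjusted p = 0.0394), and both count tests called Sdf2l1, named after its values were seen, lower in treated RH/RQ against RH/+ hearts (adjusted p of 0.0400 by edgeR and 0.0439 by DESeq2). The limma call of Herpud1 was lost without treated RH/RQ replicate 1 (adjusted p = 0.129), vehicle RH/RQ replicate 1 (0.123) or vehicle RH/RQ replicate 2 (0.190).

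**Figure D5:**
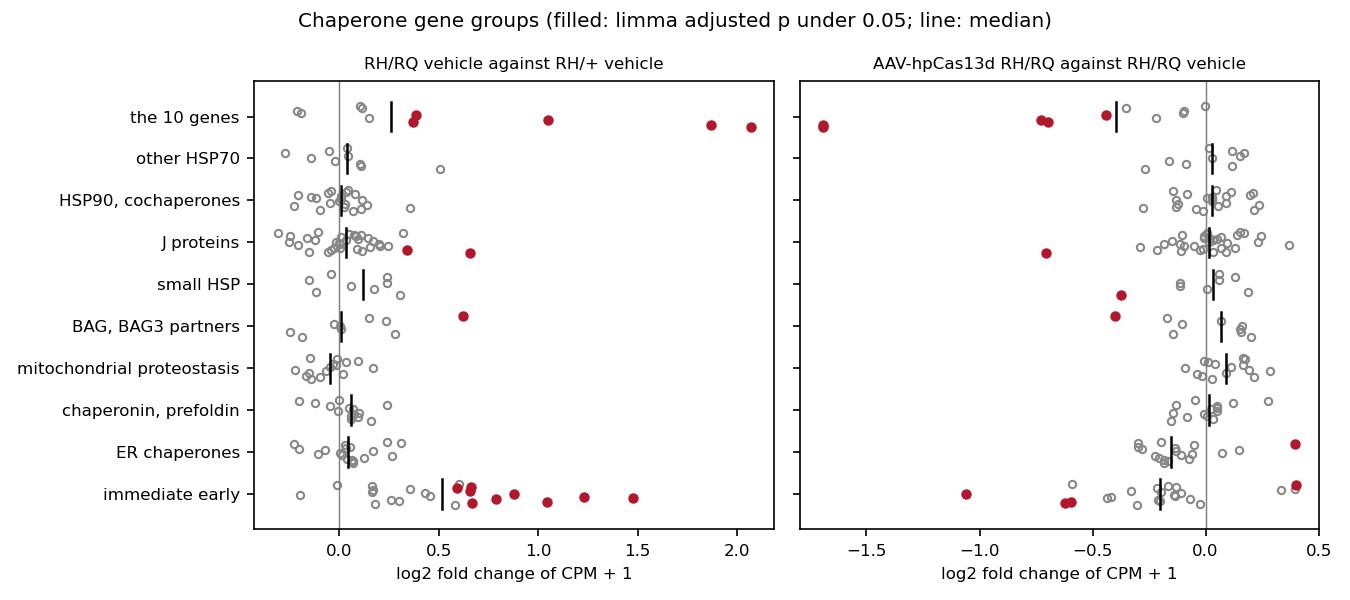
Log2 fold changes of CPM + 1 for each tested gene (points) of the 10 genes, 8 families outside them and the immediate early genes, in vehicle RH/RQ against RH/+ hearts and in treated against vehicle RH/RQ hearts. Filled points have a limma adjusted p under 0.05 and lines are medians, and most families centre near 0 while the medians of the 10 genes are 0.26 and -0.40.

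Cirbp and Rbm3 encode RNA-binding proteins that rise on mild cooling and fall on heating. Cirbp had 73.7 and 61.4 CPM in treated RH/RQ hearts, 43.9 and 35.8 CPM in vehicle RH/RQ hearts, and 44.0 and 45.7 CPM in RH/+ hearts. It was higher in treated RH/RQ hearts than in either other group, by 0.75 against vehicle RH/RQ hearts (SE 0.11, limma adjusted p = 0.000348) and by 0.57 against RH/+ hearts (SE 0.11, limma adjusted p = 0.00461). The first call was kept with each library left out, and the second was lost without RH/+ replicate 1 (adjusted p = 0.0627) or treated RH/RQ replicate 1 (0.0772). Between vehicle RH/RQ and RH/+ hearts it was not called (log2 difference -0.17, SE 0.11, limma adjusted p = 0.473), although both vehicle RH/RQ values were the lower. Rbm3 had 54.6 and 55.8 CPM in treated RH/RQ hearts, 50.9 and 50.8 CPM in vehicle RH/RQ hearts, and 45.0 and 37.3 CPM in RH/+ hearts. It passed in treated RH/RQ against RH/+ hearts (log2 difference 0.42, SE 0.11, limma adjusted p = 0.0285). This call was not made by edgeR or DESeq2, nor by limma with libraries scaled by TMM or RLE factors. It was also lost without treated RH/RQ replicate 1, treated RH/RQ replicate 2 or RH/+ replicate 2.

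Other stress and cell type lists were counted in the same hearts, where limma called 3.48%, 1.22% and 2.33% of all genes higher and 1.51%, 0.827% and 0.53% lower in vehicle RH/RQ against RH/+ hearts, treated against vehicle RH/RQ hearts, and treated RH/RQ against RH/+ hearts. Of 22 immediate early genes tested, which are switched on within minutes of many stimuli, handling included, limma called 9 higher and 0 lower in vehicle RH/RQ against RH/+ hearts, 1 higher and 3 lower in treated against vehicle RH/RQ hearts, and 7 higher and 0 lower in treated RH/RQ against RH/+ hearts. Their sum was 476 to 563 CPM in treated RH/RQ hearts, 526 to 594 CPM in vehicle RH/RQ hearts and 410.4 to 421 CPM in RH/+ hearts. By this sum the treated RH/RQ hearts overlapped the vehicle RH/RQ hearts, but single genes differed from the sum. In treated against vehicle RH/RQ hearts Fosl2, Jun and Atf3 were called lower and Klf6 higher. Fosl2 averaged 28.1, 43.7 and 27.2 CPM in treated RH/RQ, vehicle RH/RQ and RH/+ hearts, Jun 62.7, 94.7 and 45.4 CPM, and Atf3 3.37, 8.09 and 3.95 CPM. For Fosl2, Jun and Atf3, as for Hspa1a and Hspa1b, the mean of treated RH/RQ hearts stood nearer to that of RH/+ hearts. They were named for being called lower in treated RH/RQ hearts, so this follows in part from that choice. Jun and Klf6 were also among the 7 genes called higher in treated RH/RQ against RH/+ hearts. Klf6 averaged 88.0, 66.6 and 67.1 CPM. Of 10 fibroblast markers, 6, 0 and 7 were called higher and 0, 3 and 0 lower in the same order of comparisons. Their sum was 3419 to 4005, 3278 to 3459 and 2315 to 2747 CPM in treated RH/RQ, vehicle RH/RQ and RH/+ hearts. Gsn weighed most in this sum, with 2267 and 1934, 1603 and 1550, and 1278 and 1628 CPM in those groups. The sum thus hides Col1a1, Col1a2 and Col3a1, the 3 called lower in treated against vehicle RH/RQ hearts. In that comparison 7 of the 10 had a log2 difference above 0. Of 10 macrophage markers, limma called 5 higher in vehicle RH/RQ against RH/+ hearts and 0 in the other comparisons. Their sums were 407 to 491, 469 to 513 and 384 to 385 CPM. In treated against vehicle RH/RQ hearts edgeR and DESeq2 each called 2 lower, beside 200 and 191 of all 16804 genes. The median log2 difference there was -0.23, with 0 of the 10 above 0. In treated RH/RQ against RH/+ hearts it was 0.26, with all 10 above 0. None of these 10 fibroblast and 10 macrophage markers was at 0 in all libraries. Of 10 blood markers, 8 were found by symbol and 5 were tested, of which 0, 0 and 0 were called higher and 0, 3 and 4 lower in that order, and their sum was 158 to 184 CPM in treated RH/RQ hearts, 231 to 348 CPM in vehicle RH/RQ hearts and 251 to 302 CPM in RH/+ hearts. Of 5 adipocyte markers tested, 0, 0 and 0 were called higher and 3, 0 and 1 lower. The called genes were Car3, Cfd and Plin1, and their RH/+ values were carried by replicate 2. Car3 had 0.579 and 0.448 CPM in treated RH/RQ hearts, 0.176 and 0.0258 CPM in vehicle RH/RQ hearts, and 0.866 and 7.34 CPM in RH/+ hearts. Fabp4 and Plin4 were not called, with 535 and 448 CPM and 201 and 219 CPM in RH/+ hearts. Of 10 mural cell markers, 0, 1 and 0 were called higher and 2, 0 and 1 lower, and of 10 endothelial markers 0, 1 and 0 were called lower and none higher. Of the 10 cardiomyocyte markers limma called 0 in each comparison, with 2, 1 and 1 at an unadjusted p under 0.05, and DESeq2 called 5, 0 and 2 and edgeR 1, 0 and 0 lower. The part of these lists in the heat shock gene values was not tested.

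The non-member genes whose profiles over the 6 libraries lay nearest to the mean profile of Hspa1a and Hspa1b were Srpx, Thbs4, Timp1, Col1a1 and Lvrn, with root mean square differences of 0.231, 0.242, 0.248, 0.278 and 0.303 on the centred log2(CPM + 1) scale among 12326 genes. The profile itself had a root mean square of 0.881. Thbs4, for example, averaged 9.27 CPM in treated RH/RQ hearts, 39.5 CPM in vehicle RH/RQ hearts and 6.92 CPM in RH/+ hearts, and Col1a1 averaged 55.9, 127 and 38.9 CPM in those groups. None of these 5 is a chaperone gene on the lists used here. Nearest to the mean profile of the other 8 members were Apmap, Ripk1, Dipk2a, Mtmr4 and Atg2b, at 0.0177 to 0.0386, for a profile whose root mean square was 0.138. Likeness over 6 libraries in 3 groups describes these libraries only.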

How the data were processed

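The members and gene lists were chosen with earlier results of these data known. Per the submitters' processing notes HISAT2, HTSeq, DESeq2 and the mm10 build were used; their versions, the annotation, the strand setting and the read length are not given in the sources used here. The authors deposited 3 tables of 4 libraries each with expression in CPM, and every value was a whole number of reads within a tolerance of 0.001. Beside these, the deposited tables hold the authors' DESeq2 results, per their headers: a signal averaged over 4 libraries, the log2 fold change and its error, a score for the test, and raw and adjusted p-values.

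The groups came from the genotype and treatment labels. The test was limma 3.58.1 in R 4.3.3 with a trend on log2(CPM + 1), using all 6 libraries and 3 group means, after filterByExpr with a minimum count of 10. Benjamini-Hochberg adjustment was over 16804 genes, with calls at an adjusted p under 0.05. On the recovered reads, edgeR 4.0.16 called 918, 381 and 411 genes, and DESeq2 1.42.0 called 954, 370 and 436, for vehicle RH/RQ against RH/+ hearts, treated against vehicle RH/RQ hearts and treated RH/RQ against RH/+ hearts, where limma called 838, 344 and 480. The fits were tested on simulated data. Outside the 10, the text names the called genes of each heat shock list, Hsf1 and Hsp90ab1 for their role, and the 5 nearest profiles among tested genes that averaged at least 1 CPM. Cell type and immediate early lists are given as counts, apart from Gsn, the collagen genes called lower and the tested adipocyte markers. The immediate early genes called in treated against vehicle RH/RQ hearts are named as well. Coordinates are from GENCODE M21 on GRCm38.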

Additional observations from a re-analysis of the deposited data

How the results depend on the processing

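Leaving out each library in turn gave 343 to 1156 genes called for vehicle RH/RQ against RH/+ hearts, 134 to 613 for treated against vehicle RH/RQ hearts and 172 to 703 for treated RH/RQ against RH/+ hearts, and among the other chaperone genes 3 to 7, 1 to 6 and 0 to 5. With no filter on low genes, 57, 15 and 7 genes were called and 0 of the other chaperone genes in each comparison; the cause was not tested. In that setting Hspa1a, Hspa1b and Dnajb1 kept their calls in vehicle RH/RQ against RH/+ hearts only. With a replicate block, 1173, 567 and 715 genes were called, and 3 other chaperone genes in treated RH/RQ against RH/+ hearts, where DESeq2 called 2, with Serpinh1 added. The replicate numbers follow the first digit, 6 or 7, of the sample titles, and the remaining digits are the same for both samples of a group. The labels give the meaning of neither part. A batch shared by number was not tested beyond the block. Same-numbered libraries deviated together in the vehicle groups (r = 0.1789 over 13488 genes) but not by the limit of 0.1 between treated and vehicle RH/RQ (0.0896) or treated RH/RQ and RH/+ (-0.0309), so the numbers were not taken as pairs. Under the block Hspb1 passed in vehicle RH/RQ against RH/+ hearts (limma adjusted p = 0.0227) and Ier5 in treated RH/RQ against RH/+ hearts (0.0468). The block, edgeR, DESeq2, TMM and RLE factors each called Hsph1, Hspd1 and Hspe1 lower in treated RH/RQ against RH/+ hearts. Without treated RH/RQ replicate 2, Chordc1 was also called lower in treated against vehicle RH/RQ hearts. Scaling moved the split of calls: with TMM factors 527 genes were higher and 404 lower, 172 and 196, and 237 and 164 in the 3 comparisons, against 585 and 253, 205 and 139, and 391 and 89 by library total. edgeR and DESeq2 also called Dnajc28 lower in vehicle RH/RQ against RH/+ hearts and Serpinh1 lower in treated against vehicle RH/RQ hearts. No called value reversed. Hspa1a, with 60 to 108 reads in each treated RH/RQ and RH/+ library, is the member whose value depth limits most.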
